A study of Homo sapiens with 13 samples.

Results

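The mucins and the Golgi glycosyltransferases are followed here in H1975 cells kept in starvation medium without EGF for 0 to 48 h. H1975 is an established line from a human lung adenocarcinoma. The genes were taken by symbol: MUC, GALNT, ST3GAL, ST6GAL, ST6GALNAC, ST8SIA, FUT, B3GNT, B4GALT, B3GALT or GCNT followed by a number. A gene entered if its probe set reached a score of at least 0 on some array, and the probe set with the highest mean over the 13 arrays stood for the gene. This gave 20 genes among the 12375 genes (12976 probe sets) tested: 16 GALNT enzymes, the mucins MUC15 and MUC22, the sialyltransferase ST6GALNAC2 and the fucosyltransferase FUT2. RefSeq lists 91 genes with such symbols, and 21 of them had a named probe set; the others were not analysed here. GALNT16 was left out by the rule, with a highest score of -0.0566. The members just inside it were GALNT8, with a highest score of 0.00163, and GALNT13, with 0.00588.

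The platform annotation names 18 of the 20 genes. MUC15 and ST6GALNAC2 were named through the result table of the study, which lists genes by their response to EGF on arrays that include these controls, and the rule mentions both by name. Their presence among the members is therefore not independent of the scores, and counts are also given without them.

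The series used GeneChip Human Gene ST arrays, with 3 arrays for 0 h, a single one for each of 0.5, 1, 2, 4 and 6 h, a pair (2 arrays) for 24 h and again 3 for 48 h. Cells of every group, those at 0 h included, grew for several days, were washed and were then starved overnight without fetal calf serum. They were harvested 0 to 48 h after this overnight starvation. The methods do not state whether the medium of the controls was changed at 0 h. All groups come from one line, no group was fed in parallel, and the labels do not say whether replicates were grown apart, so that p-values reflect only how these samples scattered, which may be technical. The effect of longer starvation cannot be told apart from that of time in culture.

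Mucins are proteins with long serine- and threonine-rich stretches that carry dense chains of O-linked sugars, and epithelia display them at the surface or secrete them as mucus. The chains are built in the Golgi. Polypeptide N-acetylgalactosaminyltransferases, the GALNT enzymes, place the first sugar (GalNAc) on the protein, other transferases extend it with galactose, GlcNAc or fucose, and sialyltransferases cap the chain with sialic acid. The enzymes draw on sugars activated in the cytosol or the nucleus and carried into the Golgi.

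Promoters of 14 of the 20 members (19 promoters in all) were found in RefSeq. Those of the 4 GALNT genes that differed between 48 h and 0 h are shown, 250 bases before to 50 bases after the start of transcription on the plus strand of GRCh38.p14, with each GC box (GGGCGG or its reverse complement CCGCCC, the letters bound by factors of the SP family) in capitals. They lie at chr5:154190483-154190782 (GALNT10), chr1:230066988-230067287 (GALNT2), chr9:98807420-98807719 (GALNT12) and chr4:173168561-173168860 (GALNT7).
GALNT10: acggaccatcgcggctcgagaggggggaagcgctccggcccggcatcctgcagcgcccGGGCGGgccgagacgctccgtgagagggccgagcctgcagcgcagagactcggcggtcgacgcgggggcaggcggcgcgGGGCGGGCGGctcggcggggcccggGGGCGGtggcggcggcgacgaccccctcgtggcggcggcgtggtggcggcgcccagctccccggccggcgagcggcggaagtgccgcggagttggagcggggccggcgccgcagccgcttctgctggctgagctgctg
GALNT2: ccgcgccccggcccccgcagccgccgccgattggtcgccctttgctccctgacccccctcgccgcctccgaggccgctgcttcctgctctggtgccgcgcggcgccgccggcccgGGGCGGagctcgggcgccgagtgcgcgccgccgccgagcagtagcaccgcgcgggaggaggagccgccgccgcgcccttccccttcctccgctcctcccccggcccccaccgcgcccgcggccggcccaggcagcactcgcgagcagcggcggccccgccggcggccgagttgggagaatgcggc
GALNT12: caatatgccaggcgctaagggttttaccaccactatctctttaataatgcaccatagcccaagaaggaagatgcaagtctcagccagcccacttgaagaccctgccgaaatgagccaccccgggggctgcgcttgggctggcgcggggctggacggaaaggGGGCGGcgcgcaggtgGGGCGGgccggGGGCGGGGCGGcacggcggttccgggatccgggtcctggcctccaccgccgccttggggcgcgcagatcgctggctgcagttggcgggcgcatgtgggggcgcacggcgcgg
GALNT7: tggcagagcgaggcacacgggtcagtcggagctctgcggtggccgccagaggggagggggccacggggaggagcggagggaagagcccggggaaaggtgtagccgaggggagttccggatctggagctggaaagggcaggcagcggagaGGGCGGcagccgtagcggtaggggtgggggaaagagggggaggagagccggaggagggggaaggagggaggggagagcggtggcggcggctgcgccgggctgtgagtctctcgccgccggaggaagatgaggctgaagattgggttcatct
They held 51 CpG dinucleotides in GALNT10, 51 in GALNT2, 29 in GALNT12 and 23 in GALNT7, against a median of 14 over the 35116 promoters of the table. As many CpG or more were found in 1.01% of all promoters for GALNT10 and GALNT2, in 24.2% for GALNT12 and in 35.8% for GALNT7. GC content was 81.0% in GALNT10, 82.0% in GALNT2, 68.7% in GALNT12 and 69.7% in GALNT7, against a median of 58.7%. The GC box occurred 4 times in GALNT10 and GALNT12 and once in GALNT2 and GALNT7, overlapping copies included, so it was present in genes that were higher and in genes that were lower at 48 h. It was found in 12 of the 19 member promoters and in 45.0% of all promoters. The CCAAT box (CCAAT or ATTGG) was found in 5 of the 19, among them GALNT2 and GALNT7, and in 34.6% of all. The TATA box (TATAAA or TTTATA) was found in 1, that of MUC22, and in 11.5% of all. A match is a description of letters and not a site of binding.

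Scores were computed by the authors with SCAN, which standardises each array on its own. A score near 0 is background. The units are not log2 steps, and the distance between 2 scores of one probe set is given in SCAN units. Over the 13 arrays, 10 members had a mean score of at least 1, namely ST6GALNAC2 and the 9 enzymes GALNT1, GALNT2, GALNT3, GALNT5, GALNT6, GALNT7, GALNT10, GALNT11 and GALNT12. Another 4 had means between 0.1 and 1, which were FUT2 at 0.354, GALNT18 at 0.543, MUC15 at 0.412 and MUC22 at 0.148. The remaining 6, GALNT8, GALNT9, GALNT13, GALNT14, GALNT15 and GALNT17, had means under 0.1 and stood at background; GALNT9, GALNT13 and GALNT17 are known mainly from neural tissue. Of these, 5 were below 0 on some array, and GALNT9 was not.

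Differences were tested with limma over all 13 arrays, with p-values adjusted over the 12976 probe sets and a threshold of 0.05. Between 48 h and 0 h, 4 members were higher (MUC15, ST6GALNAC2, GALNT10 and GALNT2), 2 were lower (GALNT12 and GALNT7) and 14 did not pass. Over all probe sets 9.86% were higher, 9.68% were lower and 19.5% were called in either direction. Among the 18 genes named by the platform, 2 were higher and 2 were lower. The median difference of the members was 0.00688, against -0.00155 over all probe sets. MUC15 and ST6GALNAC2 had the largest differences among the members. In RNA of whole cultures a smaller share of cells of one kind and less RNA per cell cannot be told apart.

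**Figure D1:**
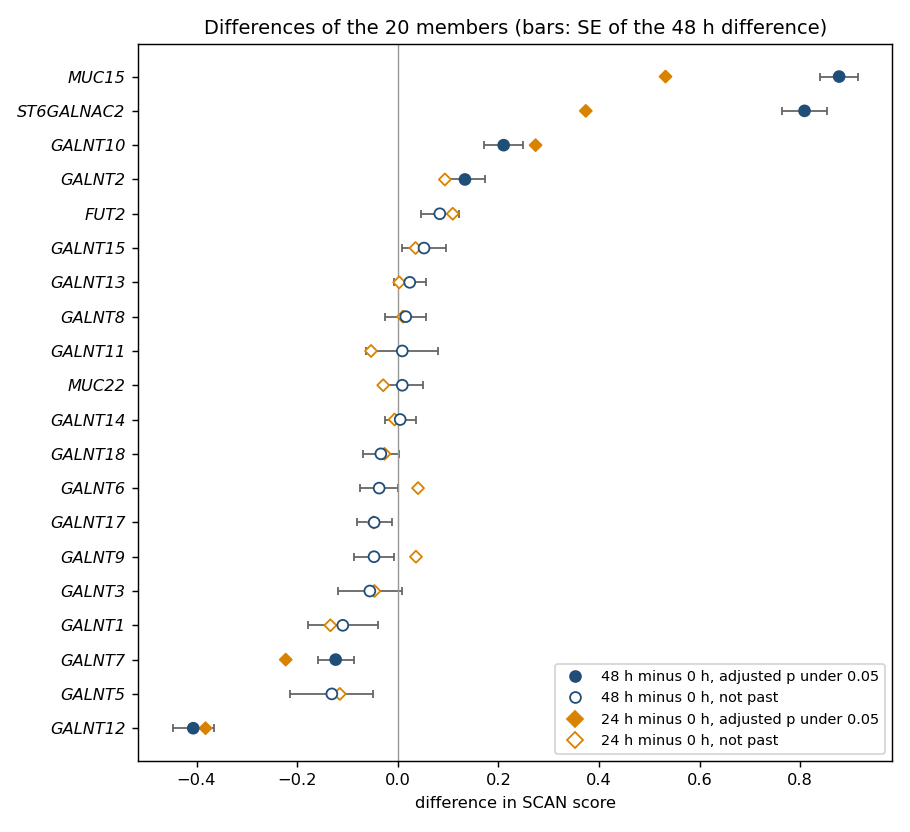
Difference in SCAN score from the 0 h arrays for each of the 20 members, at 48 h (circles, with bars of 1 standard error) and at 24 h (diamonds). Filled symbols passed an adjusted p of 0.05. MUC15 (0.877 at 48 h) and ST6GALNAC2 (0.808) lie far to the right, GALNT12 (-0.406) far to the left, and the other members lie between -0.131 and 0.210 at 48 h.

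MUC15 encodes a membrane-bound mucin with a heavily glycosylated outer part. On the 0 h arrays its score was 0.134, 0.0655 and 0.106 (replicates 1, 2 and 3). It was 0.147 at 0.5 h, 0.153 at 1 h, 0.190 at 2 h, 0.212 at 4 h and 0.141 at 6 h. The 24 h arrays gave 0.604 and 0.664, and the 48 h arrays 0.955, 0.947 and 1.03. Up to 6 h the gene thus stayed close to background, although the arrays from 0.5 h to 6 h all lay above those of 0 h. Every array of 24 h and 48 h lay above every earlier one, with no overlap between 24 h and 48 h. The mean was 0.979 ± 0.0486 at 48 h, against 0.102 ± 0.0342 at 0 h (SD, n = 3 each). The difference of 0.877 (SE 0.0378, adjusted p = 6.26e-07) was the 5th largest rise of the 12976 probe sets.

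ST6GALNAC2 adds sialic acid in α2,6 linkage to the GalNAc of O-linked chains, mainly where galactose is already attached. Its scores were 1.46, 1.43 and 1.59 at 0 h, 1.59 at 0.5 h, 1.57 at 1 h, 1.44 at 2 h, 1.48 at 4 h and 1.62 at 6 h. They were 1.89 and 1.84 at 24 h and 2.27, 2.31 and 2.32 at 48 h. The gene was well above background at the start, and here too the 24 h arrays lay above all earlier ones and the 48 h arrays above those of 24 h. The mean was 2.30 ± 0.0246 at 48 h, against 1.49 ± 0.0856 at 0 h (SD, n = 3 each). The difference of 0.808 (SE 0.0445, adjusted p = 1.54e-06) ranked 10th among the rises.

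The steps before and after 24 h differed among the members. Between 24 h and 0 h, 3 members were higher and 2 were lower, and over all probe sets 5.33% were higher and 2.37% lower; the platform members gave 1 higher and 2 lower. MUC15 was 0.532 higher at 24 h than at 0 h (SE 0.0423, adjusted p = 0.000279) and ST6GALNAC2 0.374 higher (SE 0.0498, adjusted p = 0.00244). Between 48 h and 24 h these 2 genes were the only members past the threshold, both higher, where 0.624% of all probe sets were higher and 2.21% lower. MUC15 was another 0.345 higher at 48 h than at 24 h (SE 0.0423, adjusted p = 0.00182) and ST6GALNAC2 another 0.435 (SE 0.0498, adjusted p = 0.00149). No member was lower at 48 h than at 24 h by limma, and of the 3 members at an unadjusted p under 0.05 none was lower. Without the 24 h array of replicate 1 the step of MUC15 from 24 h was 0.315 and missed the threshold (adjusted p = 0.0510).

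**Figure D2:**
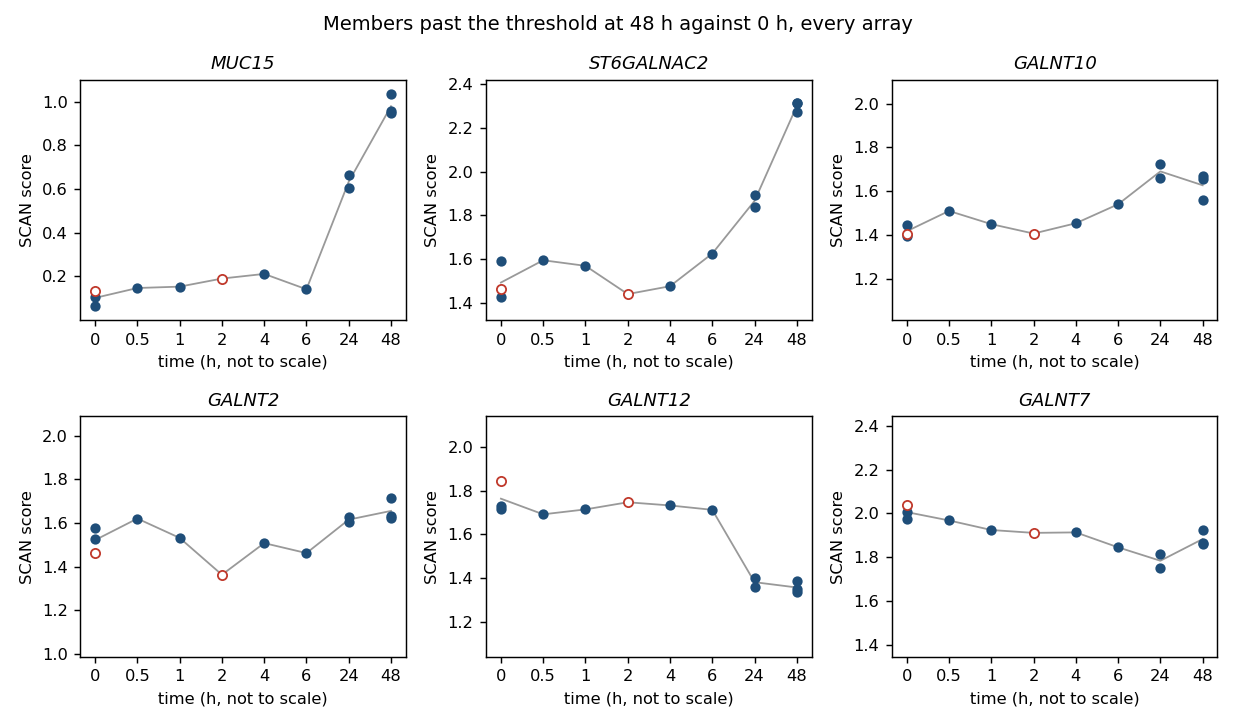
SCAN score on every array against time in starvation medium for the 6 members past the threshold at 48 h against 0 h. Points are arrays, the line joins the time point means, and open points are the 0 h array of replicate 1 and the 2 h array. MUC15 and ST6GALNAC2 climb at 24 h and again at 48 h, GALNT10 and GALNT12 reach their late level by 24 h, and GALNT2 and GALNT7 move by about the spread of the early arrays.

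Over all probe sets 9.86% were higher and 9.68% were lower at 48 h than at 0 h. Of the 16 GALNT enzymes, which start the chains, 2 were higher, 2 were lower and 12 did not pass, with a median difference of -0.0353. These counts are near those shares and are not read as a trait of the family. All 4 that passed belong to the 9 with a mean score of at least 1. GALNT12, variants of which have been linked to colorectal cancer risk, moved farthest. Its scores were 1.85, 1.72 and 1.73 at 0 h, 1.69 at 0.5 h, 1.71 at 1 h, 1.75 at 2 h, 1.73 at 4 h and 1.71 at 6 h. They were 1.36 and 1.40 at 24 h and 1.35, 1.33 and 1.39 at 48 h. The 8 arrays up to 6 h and the 5 later arrays did not overlap, and the 24 h and 48 h arrays did. GALNT12 was lower at 48 h than at 0 h, with a difference of -0.406 (SE 0.0409, adjusted p = 6.6e-05). It was already lower at 24 h than at 0 h, with a difference of -0.382 (SE 0.0457, adjusted p = 0.00153). The 48 h arrays differed from the 24 h arrays by -0.0243 (SE 0.0457, adjusted p = 0.890).

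GALNT10 acts best on peptides that already carry GalNAc. Its scores were 1.41, 1.40 and 1.45 at 0 h, 1.51 at 0.5 h, 1.45 at 1 h, 1.41 at 2 h, 1.45 at 4 h and 1.54 at 6 h. They were 1.66 and 1.72 at 24 h and 1.65, 1.67 and 1.56 at 48 h. All late arrays lay above all early ones, although the lowest 48 h array (1.56) stood close to the 6 h array (1.54). The gene was 0.210 higher at 48 h than at 0 h (SE 0.0392, adjusted p = 0.00383) and 0.274 higher at 24 h (SE 0.0438, adjusted p = 0.00548). The 24 h call was lost without the 24 h array of replicate 3 (difference 0.241, adjusted p = 0.0992).

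GALNT7, like GALNT10, prefers substrates that are already glycosylated. Its scores were 2.04, 2.01 and 1.98 at 0 h, 1.97 at 0.5 h, 1.92 at 1 h, 1.91 at 2 h, 1.91 at 4 h and 1.84 at 6 h, then 1.82 and 1.75 at 24 h and 1.86, 1.92 and 1.86 at 48 h. Of the 13 arrays the lowest were those of 24 h, and the 48 h arrays lay among those of 1 to 6 h. GALNT7 was lower at 24 h than at 0 h (difference -0.223, SE 0.0399, adjusted p = 0.00917). At 48 h it was lower than at 0 h too, with a smaller difference of -0.123 (SE 0.0357, adjusted p = 0.0349). Over 13 arrays it was also the only member with an unadjusted p under 0.05 for the mean of 4 h and 6 h against 0 h (difference -0.127, limma adjusted p = 0.935). The 48 h call was lost without the 0 h array of replicate 2 (adjusted p = 0.0695) or the 48 h array of replicate 1 (0.127) or 3 (0.131), and the 24 h call without the 24 h array of replicate 3 (difference -0.190, adjusted p = 0.133).

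GALNT2, a broadly expressed enzyme with apolipoprotein C-III among its substrates, had the smallest difference among the 4 higher members. Its scores were 1.46, 1.53 and 1.58 at 0 h, 1.62 at 0.5 h, 1.53 at 1 h, 1.36 at 2 h, 1.51 at 4 h and 1.46 at 6 h, then 1.60 and 1.63 at 24 h and 1.62, 1.71 and 1.63 at 48 h. The 48 h arrays lay above the 0 h arrays, the lowest of them (1.62) hardly above the 0.5 h array (1.62). The difference at 48 h was 0.133 (SE 0.0401, adjusted p = 0.0411), and that at 24 h was 0.0936 (adjusted p = 0.270). It missed the threshold at 48 h without the 0 h array of replicate 2 (adjusted p = 0.0737) or the 48 h array of replicate 1 (0.0751), 2 (0.161) or 3 (0.0840). A dimmer probe set of the gene (mean 0.195) differed by 0.123 with an adjusted p of 0.106.

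The 12 other GALNT enzymes did not pass between 48 h and 0 h. Among the 5 with a mean of at least 1, GALNT1, a widely expressed member, ranged over 1.72 to 1.85 at 48 h and 1.77 to 2.08 at 0 h. GALNT3, which glycosylates the phosphate hormone FGF23, ranged over 1.32 to 1.43 at 48 h and 1.32 to 1.59 at 0 h. Its close relative GALNT6 gave 1.80 to 1.82 at 48 h and 1.80 to 1.92 at 0 h. GALNT11, known for its action on Notch receptors, gave 1.30 to 1.37 at 48 h and 1.20 to 1.53 at 0 h. GALNT5 ranged over 1.12 to 1.19 at 48 h and 1.09 to 1.51 at 0 h and had the largest difference among the members that did not pass, -0.131. In GALNT1, GALNT3, GALNT5 and GALNT11 the 0 h range was widened by the array of replicate 1. Without the 0 h array of replicate 2, GALNT5 passed the threshold with a difference of -0.231 (adjusted p = 0.0298). Without the 0 h array of replicate 1 and the 2 h array, GALNT5 differed by only -0.0216 (limma adjusted p = 0.786).

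FUT2, the secretor fucosyltransferase that makes H-type structures in secretions, scored 0.271 to 0.345 at 0 h, 0.379 to 0.444 at 24 h and 0.335 to 0.419 at 48 h, with a difference of 0.0835 between 48 h and 0 h (SE 0.0379, adjusted p = 0.165). The other mucin, MUC22, lies in the HLA region of chromosome 6 and stayed near background. Its scores were 0.167, 0.158 and 0.0698 at 0 h, 0.206 at 0.5 h, 0.135 at 1 h, 0.214 at 2 h, 0.201 at 4 h, 0.141 at 6 h, 0.0894 and 0.116 at 24 h, and 0.167, 0.0736 and 0.181 at 48 h. The groups overlapped, and the difference at 48 h was 0.00895 (SE 0.0413, adjusted p = 0.92). Another 7 probe sets carry its name, 5 of which fall into 2 sets with identical values, and none passed.

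**Figure D3:**
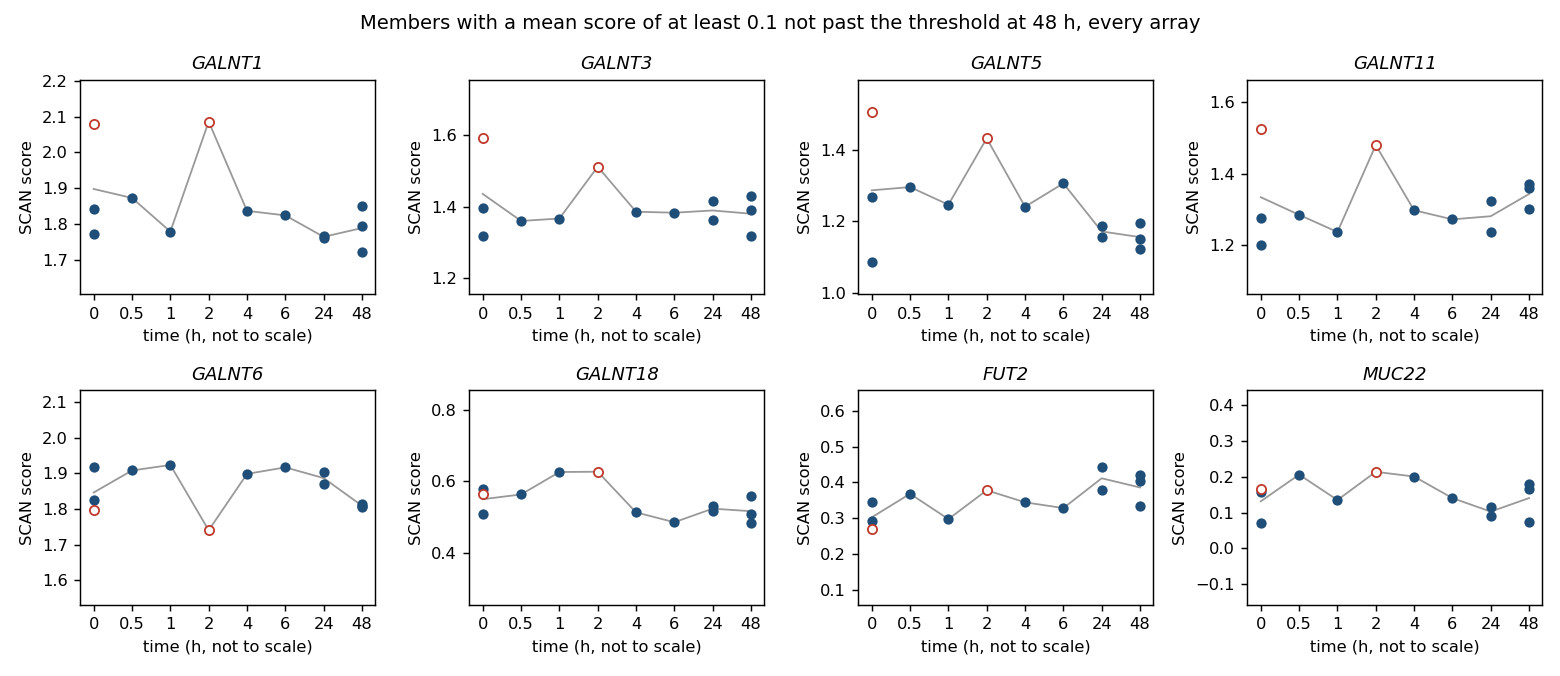
SCAN score on every array against time for the 8 members with a mean score of at least 0.1 that did not pass at 48 h against 0 h. Points are arrays, the line joins the time point means, and open points are the 0 h array of replicate 1 and the 2 h array. In GALNT1, GALNT3, GALNT5 and GALNT11 both open points lie above the other arrays up to 6 h.

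At the early times no member passed by limma. For the mean of 0.5 h and 1 h against 0 h, 0% of all probe sets passed; 0 members and 1179 probe sets (9.09%) had an unadjusted p under 0.05. For the mean of 4 h and 6 h against 0 h, 0% passed as well; 1 member, GALNT7, and 635 probe sets (4.89%) had an unadjusted p under 0.05. Each of these times has a single array, which was taken to vary like the replicated ones. Over 11 arrays, without the 0 h array of replicate 1 and the 2 h array, again no member passed, where 0.2% (26) of all probe sets did for 0.5 h and 1 h and 0.185% (24) for 4 h and 6 h. There 2 members, GALNT7 and MUC15, and 12.7% of all probe sets had an unadjusted p under 0.05 for 4 h and 6 h. For 0.5 h and 1 h it was 0 members and 16.5% of all.

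These 2 arrays stood apart from the rest. Over the tested probe sets, replicate 1 at 0 h correlated with the other 0 h arrays at 0.981 and 0.982, while the other pairs of replicates at 0, 24 and 48 h gave 0.996 to 0.997. The methods of the study mention possible outliers, an assumed magnesium problem and the exclusion of the arrays concerned, without naming them. Whether these 2 arrays were among them is not stated. Set against the other 6 arrays from 0 to 6 h, both arrays lay above the range of those 6 in 21.0% of all probe sets and below it in 18.1%. Among the members both lay above it in 5 (GALNT1, GALNT3, GALNT5, GALNT11 and GALNT12) and below it in 2 (GALNT6 and GALNT9). GALNT1 stood 0.259 above the mean of the 6 on the 0 h array and 0.265 above it on the 2 h array. GALNT11 stood 0.264 and 0.219 above it on these arrays, and GALNT5 0.265 and 0.192. MUC15, ST6GALNAC2 and GALNT10 were inside the range of the 6 on both.

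**Figure D4:**
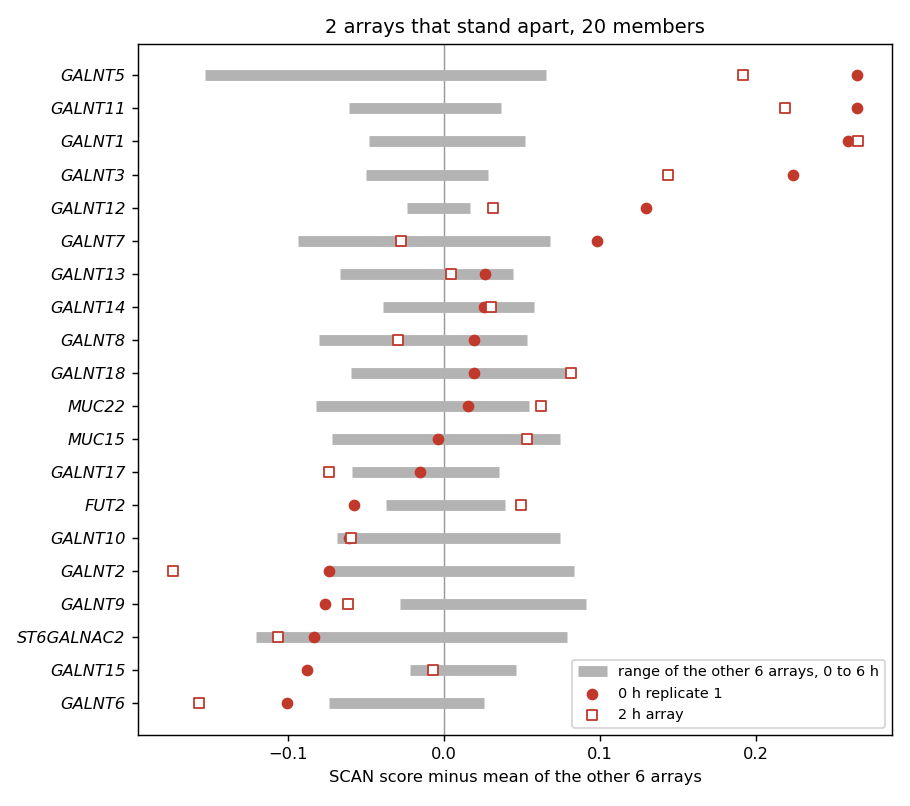
SCAN score of the 0 h array of replicate 1 (filled circles) and of the 2 h array (open squares), minus the mean of the other 6 arrays from 0 to 6 h, for the 20 members. Grey bars give the range of those 6 arrays. GALNT1, GALNT3, GALNT5, GALNT11 and GALNT12 lie to the right of the bar on both arrays, GALNT6 and GALNT9 to its left.

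Without these 2 arrays the calls for the members were the same 6 at 48 h, the same 5 at 24 h and the same 2 between 48 h and 24 h, while the share of all probe sets that passed grew. It was then 14.8% higher and 12.7% lower at 48 h against 0 h, 12.8% higher and 4.72% lower at 24 h against 0 h, and 2.71% higher and 7.61% lower at 48 h against 24 h. MUC15 was then 0.893 higher (adjusted p = 1.4e-09) and ST6GALNAC2 0.794 higher (adjusted p = 9.28e-09). GALNT12 was lower by a difference of -0.366 (adjusted p = 1.18e-06). GALNT10 was 0.205 higher (adjusted p = 0.00130) and GALNT2 0.104 higher (adjusted p = 0.0469). GALNT7 was lower (difference -0.108, adjusted p = 0.0341).

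The profiles most like those of the 2 leading members were sought among all tested probe sets by Pearson's r over the 13 arrays, which share the step between early and late times. For MUC15 they were SLC60A1 (0.992), TMPRSS11E (0.991) and TMEM45B (0.989). For ST6GALNAC2 they were PDGFA (0.988), SLC60A1 (0.984) and IFITM1 (0.982). Among the members, MUC15 and ST6GALNAC2 were most like each other (0.969), followed by GALNT10 (0.793 with MUC15, 0.775 with ST6GALNAC2) and GALNT2 (0.697 and 0.760). GALNT12 ran opposite to both, at -0.936 with MUC15 and -0.911 with ST6GALNAC2. These values are descriptions, since all points share one time course.

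Among the genes that supply the enzymes with activated sugars, over 13 arrays, some were lower at 48 h and the others did not pass. Of 20 such genes in a list of nucleotide sugar synthesis and transport, 8 were measured, and 0 were higher and 4 lower (median difference -0.148). At an unadjusted p under 0.05 by limma the counts were also 0 and 4. The shares of all probe sets were 9.86% higher and 9.68% lower, and 30.9% had an unadjusted p under 0.05. GNE, the enzyme that starts sialic acid synthesis, scored 1.51 to 1.65 at 0 h, 1.31 to 1.41 at 24 h and 1.14 to 1.19 at 48 h, with no overlap between the groups. The difference from 0 h was -0.389 at 48 h (SE 0.0454, adjusted p = 0.000178). The 24 h arrays had passed as well, at -0.199 (adjusted p = 0.0416). CMAS, which activates sialic acid to CMP-sialic acid, was lower at 48 h (difference -0.231, SE 0.0465, adjusted p = 0.00587). GNPNAT1 (difference -0.204, adjusted p = 0.012) and UAP1 (difference -0.204, adjusted p = 0.0308), both enzymes on the way to UDP-GlcNAc, were also lower. GFPT1, which starts that route, differed by 0.0913 over 13 arrays (adjusted p = 0.309) and was called higher over 11 arrays (difference 0.136, adjusted p = 0.0494), where the list had 1 higher and 4 lower. Thus ST6GALNAC2, a sialyltransferase, was higher at 48 h on the same arrays on which GNE and CMAS were lower. NANS (difference -0.0264, limma adjusted p = 0.716) and NANP (difference -0.0912, adjusted p = 0.262), of the same list, did not pass.

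Of 22 other enzymes of O-glycan and glycolipid synthesis and sulfation, 13 were measured, and 1 was higher and 2 were lower at 48 h (median difference 0.0356). These counts stand beside 9.86% higher and 9.68% lower over all probe sets. ABO, the blood group transferase, which extends the H structures that FUT2 and its relatives make, scored 1.36 to 1.45 at 0 h, 1.60 to 1.72 at 24 h and 1.77 to 1.82 at 48 h. It was 0.405 higher at 48 h than at 0 h (SE 0.0406, adjusted p = 6.54e-05) and 0.260 higher at 24 h (adjusted p = 0.00807). The sulfotransferases GAL3ST2 (difference -0.180, adjusted p = 0.00733) and CHST4 (difference -0.155, adjusted p = 0.036) were lower, CHST4 at scores near background. C1GALT1C1, the chaperone of the enzyme that adds galactose to the first GalNAc, differed by -0.0850 (adjusted p = 0.210). Over 11 arrays 2 were higher and 2 lower, with UGCG, which makes glucosylceramide, added (difference 0.223, adjusted p = 0.0136). At 24 h, 2 of the 13 were higher than at 0 h, ABO and POFUT2, a fucosyltransferase of the endoplasmic reticulum (difference 0.179, adjusted p = 0.0439). Of 17 golgins and subunits of the COG tethering complex, which keep the Golgi enzymes in place, 15 were measured and 0 passed by limma at 48 h, also at an unadjusted p under 0.05 (median difference 0.00594). Over 11 arrays 1 of them, COG5, was higher (difference 0.0928, adjusted p = 0.0427). None of 11 genes of N-glycan trimming and branching had a named probe set, so they were not analysed here.

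Of 22 genes of mucous and secretory airway epithelium, 16 had a named probe set and 12 were tested, as the rest of those named were below 0 on every array. Against 0 h, 4 were higher and 0 lower at 48 h by limma (median difference 0.000434), with 1 lower at an unadjusted p under 0.05. The shares of all probe sets were 9.86% higher and 9.68% lower. Between 48 h and 24 h, 0 of the 12 were higher and 0 lower over 13 arrays, and 0 were higher and 2 lower over 11 arrays. SLPI, a secreted protease inhibitor, scored 0.550 to 0.575 at 48 h, against 0.259 to 0.446 at 0 h (difference 0.227, adjusted p = 0.0066). SPDEF, a transcription factor of goblet cells, scored 0.290 to 0.408 at 0 h, 0.658 to 0.668 at 24 h and 0.533 to 0.551 at 48 h, and was 0.177 higher at 48 h (adjusted p = 0.00803) and 0.298 higher at 24 h (adjusted p = 0.00332). AGR2, an endoplasmic reticulum protein needed for mucin production in the mouse intestine, was 0.175 higher at 48 h (adjusted p = 0.00835). TFF1, a trefoil peptide, was 0.110 higher (adjusted p = 0.0393) at scores of 0.109 to 0.180 at 48 h, against 0.0230 to 0.0492 at 0 h. The 48 h and 0 h arrays did not overlap in any of these 4 genes. FOXA2, a transcription factor of airway epithelium, went the other way, with scores of 1.15 to 1.33 at 0 h, 1.25 to 1.32 at 24 h and 1.09 to 1.13 at 48 h. Its difference between 48 h and 0 h was -0.159 over 13 arrays, which did not pass (adjusted p = 0.0540), and -0.221 over 11 arrays, where it was called lower (adjusted p = 0.000197). Over all probe sets 17.9% lay wholly above at 48 h and 17.5% wholly below, and among the 20 members 4 lay above and 2 below. Of the 4 above, only GALNT10 and GALNT2 are named by the platform. The others are MUC15 and ST6GALNAC2, whose presence is not independent of the scores.

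The labels name a lung cancer line and no cell type, and epithelial markers were present. Of 6 epithelial markers 5 were measured, with summed scores of 9.30 to 9.57 at 48 h and 8.32 to 9.40 at 0 h, and none passed at 48 h by limma (2 higher at an unadjusted p under 0.05). EPCAM scored 2.18 to 2.25 at 48 h and 2.15 to 2.22 at 0 h. All 6 markers of alveolar type II cells, the surfactant-producing cells of the lung, were measured, with summed scores of 4.55 to 4.79 at 48 h and 2.12 to 2.24 at 0 h. Of these, 3 were higher at 48 h: NAPSA by 1.20 (adjusted p = 4.76e-07), SFTPA1 by 0.837 (adjusted p = 1.46e-05) and SFTPB by 0.169 (adjusted p = 0.00771). The share of all probe sets that were higher was 9.86%. SFTPC, made in the lung by these cells alone, scored 0.106 to 0.181 at 48 h and 0.0368 to 0.101 at 0 h, both close to background, with a difference that did not pass (adjusted p = 0.191). SFTPD scored 0.0185 to 0.0988 at 48 h and -0.0260 to 0.0161 at 0 h, near background, and did not pass. At 0 h SFTPB was near background too, at 0.0302 to 0.0954. NAPSA had means of 0.443, 1.11 and 1.65 at 0, 24 and 48 h, and SFTPA1 0.248, 0.598 and 1.09, so both climbed in steps as MUC15 and ST6GALNAC2 did. SFTPB (0.199 and 0.222), SFTPC (0.168 and 0.146) and NKX2-1 (1.52 and 1.52) differed little between 24 h and 48 h. Of the 6 markers, 2 were higher and 0 lower at 48 h than at 24 h, against 0.624% and 2.21% of all probe sets. The part of these genes in the differences was not tested.

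Of the markers of other cell types that were measured, LUM, CD14 and VWF were near background and LCP1 was above it. CDH5 was near background at 48 h and slightly above it at 0 h. The fibroblast marker LUM scored -0.0846 to -0.0323 at 48 h and 0.0118 to 0.0914 at 0 h, and DCN was below 0 on every array. Of 5 leukocyte markers, CD14 (-0.0245 to 0.0258 at 48 h, 0.0285 to 0.109 at 0 h) and LCP1 (0.458 to 0.567 at 48 h, 0.473 to 0.509 at 0 h) were measured, and neither passed at 48 h. The endothelial markers VWF and CDH5 had summed scores of 0.0429 to 0.0802 at 48 h and 0.209 to 0.285 at 0 h, and CDH5 scored 0.0600 to 0.120 at 48 h and 0.230 to 0.277 at 0 h and was lower at 48 h (difference -0.164, adjusted p = 0.00746).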

How the data were processed

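Total RNA of H1975 cells was measured on 13 arrays. The deposited values are scores that the authors obtained with SCAN, which scales every array separately and does not normalise between arrays; the probe-to-gene map was that of the array's manufacturer, and the version of SCAN is not given in the sources used here. Of 39937 probe sets, 15426 had 1 symbol in the platform annotation and 212 were named through the study's result table, of which 490 lines were held. After removal of 2662 below 0 on every array, 12976 were tested.

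A linear model with a level for each time point was fitted to the scores (R 4.3.3, limma 3.58.1, moderated statistics of eBayes, two-sided, Benjamini-Hochberg over all probe sets, threshold 0.05), with 5 residual degrees of freedom. Precision is limited by how few arrays there are, with a median standard error of 0.0408 for 48 h against 0 h. The fit was tested on simulated data with noise independent between arrays. The simulation lacks the shift that the 0 h array of replicate 1 and the 2 h array share. The call in the code of the study lists 11 control arrays, 2 of them at 0 h and none at 2 h, without naming them; which of the 3 arrays at 0 h is missing there is an assumption. That fit has 4 residual degrees of freedom. Alternatives covered scaling between arrays, filters, variance model, array weights, replicate block and arrays left out.

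Members past the threshold, both mucins and the brightest member of each family were described, with the genes of smallest adjusted p in each list. Members and lists were chosen with earlier results of these data known. Promoters are from RefSeq (GRCh38.p14). Tables and figures were made with Python 3.11.15, pandas 2.3.3, numpy 2.4.6 and matplotlib 3.10.9.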

Additional observations from a re-analysis of the deposited data

How the results depend on the processing

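MUC15, ST6GALNAC2, GALNT10 and GALNT12 kept their direction and their call at 48 h against 0 h under all 14 distinct alternatives run, with differences of 0.849 to 0.899, 0.772 to 0.857, 0.190 to 0.244 and -0.431 to -0.366. No result reversed. GALNT2 and GALNT7 were called at 48 h under 7 and 9 of the 14. Leaving out the 0 h array of replicate 1 equals the fit to 11 arrays, since the single 2 h array adds no residual, and was counted once. A variance trend with robust eBayes left 1 member lower at 48 h (GALNT2 at an adjusted p of 0.0595, GALNT7 at 0.0503), and fitting only the arrays of the time points compared left 1 member lower at 24 h (GALNT7 at 0.0588) and left GALNT2 short of the threshold at 48 h (0.0673). Leaving out 1 array at a time gave 1 to 2 members lower at 48 h, 1 to 2 lower at 24 h and 1 to 2 higher between 48 h and 24 h. Deviations of same-numbered arrays correlated at -0.152 to 0.0617, and those of differently numbered arrays at -0.124 to 0.124. The replicate numbers thus showed no sign of pairing, which so few arrays cannot exclude. With the replicate block, 1 member was lower at 48 h and 3 were higher, with GALNT2 at an adjusted p of 0.0562 and GALNT7 at 0.0567, and the calls at 24 h were the same 5.

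Scaling did not change a call of a member. Over all probe sets, centring each array on its median gave 324 higher and 612 lower at 24 h against 0 h, against 691 and 307 without it, and 186 higher and 197 lower at 48 h against 24 h, against 81 and 287. Quantile normalisation gave 446 and 421, and 112 and 216. Probe sets near a score of 0 cannot show a fall, which limits what can be said of the 6 members at background.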
